A study of Homo sapiens with 6 samples.

Results

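RNA-seq was used to compare A2780, a human ovarian cancer cell line sensitive to doxorubicin, with A2780-ADR, its derivative resistant to adriamycin (another name of doxorubicin), with 3 samples of each line. The genes described here are 10 genes of receptors and adaptors for vesicle transport between the endoplasmic reticulum (ER) and the Golgi. They are LMAN1, LMAN1L, LMAN2, LMAN2L, MCFD2, SURF4, TMED2, TMED10, SEC24A and KDELR1, out of 58051 genes in the deposited table. The list was chosen by function around LMAN1, and LMAN1 itself was selected on its loss of signal in A2780-ADR, so the values of all 10 genes in this contrast are given as a description, with no p-value, and counts of members past a threshold are descriptive too. Both lines were grown in the same medium, and the sample titles and the study's methods name no treatment before RNA isolation. Whether A2780-ADR was kept in doxorubicin is not stated there. A2780-ADR is a single resistant line, so drug resistance and any other difference between these lines cannot be told apart. Values are DESeq-normalized counts, from libraries of 27775745 to 30513366 reads in genes, and 1 read was worth about 1 normalized count in every library.

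Proteins leave the ER in vesicles with a COPII coat, whose SEC24 subunit binds export signals that face the cytosol. Soluble cargo inside the ER has no such signal and relies on membrane-spanning cargo receptors, which bind cargo on one side of the membrane and the coat on the other. LMAN1 (also called ERGIC-53) is a mannose-binding lectin that works together with the small calcium-binding protein MCFD2, and loss of either gene in people causes combined deficiency of coagulation factors V and VIII. Empty receptors and escaped ER proteins return in COPI vesicles, to which signals with lysines near the end of the receptor's tail bind.

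The 3' ends of the coding sequences show how these receptors are marked for traffic. They are shown because the cytosolic tails of LMAN1 and its relatives end there: each line gives the last 10 codons before the stop codon, read from a GENCODE 29 transcript of the gene on GRCh38, with lysine codons in capitals.
LMAN1: cagcaagaagcagctgccAAAAAAttcttt
SURF4: gtctccatggatgagAAGAAGAAGgagtgg
LMAN2: AAGcggcaggagcggaacAAGcgcttctac
LMAN2L: tggcaggaacagagccgaAAGcgcttctac
TMED10: cgcttcttcAAGgccAAGAAAttgattgag
TMED2: AAGagattttttgaagtccggagagttgtt

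LMAN1 and SURF4 were the 2 members with lysine codons at both the third and the fourth place from the end, the arrangement known as a COPI retrieval signal. In LMAN1 these codons are followed by a pair of phenylalanine codons, and such a pair in the protein is known to bind the COPII coat. The printed ends of TMED10 and TMED2 also hold a pair of phenylalanine codons, further from the stop codon. TMED10 has 2 adjacent lysine codons as well, but none at the third place from the end. LMAN2 and LMAN2L end in the same 12 bases, which begin with a lysine codon, and neither has the pair of lysine codons of LMAN1.

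LMAN1 (ENSG00000074695, chr18:59327823-59359962, minus strand) had 7379.8, 7845.9 and 7265.4 normalized counts in the 3 A2780 samples. In A2780-ADR it had 0, 0 and 1.92. The A2780 samples held 21840 reads of LMAN1 and the A2780-ADR samples 2, both in replicate 3. The ratio of the lines in pooled normalized reads was 11753, with a 95% interval of 3253 to 97058 that covers counting error only. On the log2(normalized count + 1) scale the difference was -12.36 ± 0.33 (SE). Before its loss LMAN1 was not a minor transcript: per kilobase of annotated exons, its mean level of 1108 in A2780 lay above 93.4% of the genes tested. Reads and not protein were measured, and a lower RNA level was not tied to any protein level here.

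The lectin relatives of LMAN1 did not share its pattern. LMAN1L, a close homologue of LMAN1, had 0 reads in all 6 samples and was not tested. LMAN2 (also called VIP36), a lectin that cycles between the ER and the Golgi, had 3923.9, 4074.2 and 3738.8 normalized counts in A2780 and 3621.6, 3851.5 and 3292.4 in A2780-ADR. These samples overlapped, and the log2 difference was -0.13 ± 0.060. LMAN2L, a lectin of the ER, had 1159.8, 1113.3 and 1124.2 in A2780. Its A2780-ADR values of 1398.9, 1430.6 and 1375.3 were all higher, by 23.8% in the mean.

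**Figure D1:**
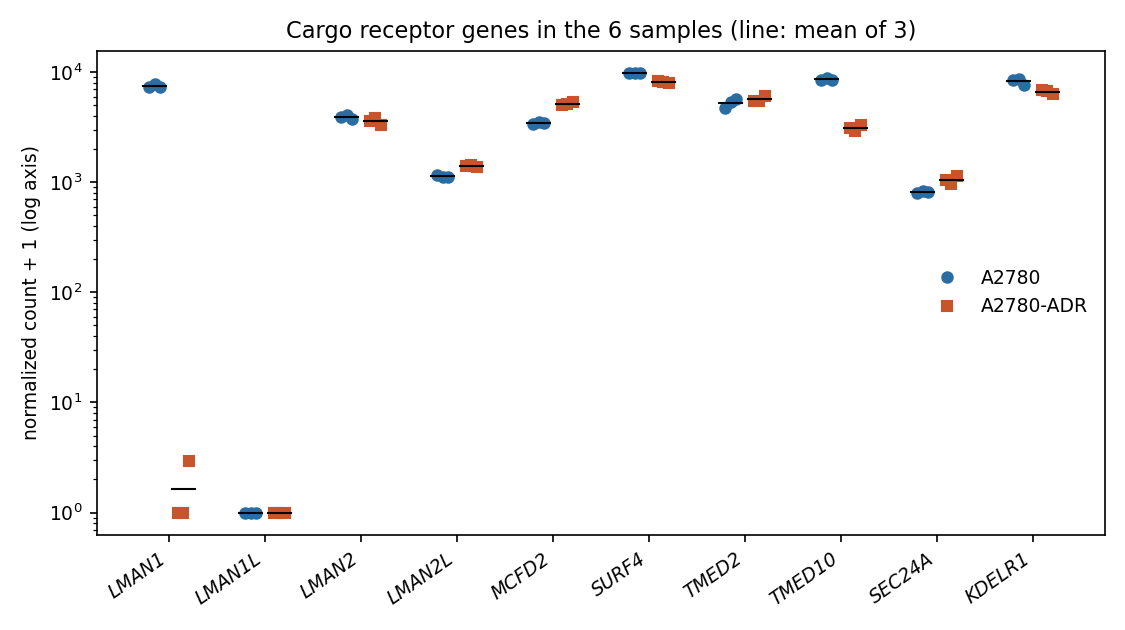
Normalized counts plus 1 on a log axis for the 10 cargo receptor genes, with circles for the 3 A2780 samples, squares for the 3 A2780-ADR samples and a line at each mean. LMAN1 drops from 7497 to 0.642 in the mean, TMED10 from 8566 to 3113, and the samples of LMAN2 and of TMED2 overlap between the lines.

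Within each library the lectin genes can be compared by their level per kilobase, and the share of each gene does not depend on scaling between libraries. LMAN1 held 34.3%, 35.1% and 34.9% of the summed level of the L-type lectin genes in the A2780 samples. In the A2780-ADR samples it held 0%, 0% and 0.0149%. The share of LMAN2 was 52.1% ± 0.44 (SD, n = 3) in A2780 and 74.6% ± 1.14 in A2780-ADR, and that of LMAN2L 13.1% ± 0.59 and 25.4% ± 1.14. The shares of a sample add up to the whole, so the loss of LMAN1, which was chosen for it, raises the other shares by itself. The mean level per kb of LMAN2 went from 1660 to 1522 and that of LMAN2L from 418 to 517. The summed level, which does depend on scaling between libraries, went from 3186 ± 112 to 2040 ± 129 per kb. The levels of LMAN2 and LMAN2L together thus did not reach the sum in A2780. Without the length correction LMAN1 held 59.8% of the lectin counts in A2780.

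**Figure D2:**
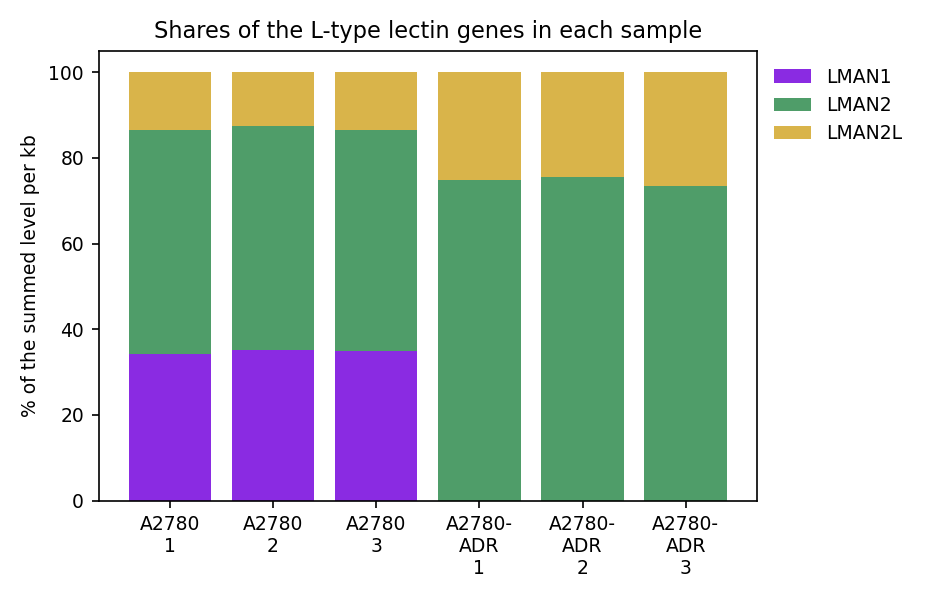
Stacked bars of the share of LMAN1, LMAN2 and LMAN2L in the summed level per kilobase of the lectin genes, 1 bar per sample (LMAN1L had 0 reads). LMAN1 fills 34.3% to 35.1% of each A2780 bar and is not visible in the A2780-ADR bars (0% to 0.0149%).

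MCFD2 (ENSG00000180398, chr2:46901870-46941855, minus strand), the soluble partner that needs LMAN1 to stay in the early secretory pathway, went the other way. It had 3392.8, 3513.0 and 3477.0 normalized counts in A2780 and 5012.0, 5121.3 and 5359.6 in A2780-ADR. All 3 A2780-ADR samples were above all A2780 samples, and the means of 3461 ± 61.7 and 5164 ± 178 (SD, n = 3) differed by 1.49-fold, or 0.58 ± 0.044 on the log2 scale. The level of LMAN1 over that of MCFD2, both per kb, was 1.93, 1.98 and 1.85 in the A2780 samples and 0, 0 and 0.000318 in the A2780-ADR samples. The resistant line thus carried more RNA of the partner and almost none of the receptor. MCFD2 overlaps TTC7A on the opposite strand, and TTC7A went from 372 to 1208 normalized counts. The strand setting of the counting is not given in the sources used here, so the part of the shared stretch in the MCFD2 value was not tested.

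TMED10 and TMED2 are p24 proteins, which form complexes that carry GPI-anchored proteins out of the ER and take part in forming COPI vesicles. TMED10 (ENSG00000170348, chr14:75131470-75176631, minus strand) had 8387.9, 8826.8 and 8484.6 normalized counts in A2780 and 3098.5, 2939.2 and 3301.0 in A2780-ADR. The groups were far apart, with means 2.75-fold lower in A2780-ADR and a log2 difference of -1.46 ± 0.050. TMED2 (chr12:123584531-123598577) had 4757.1, 5372.9 and 5666.2 in A2780 and 5419.6, 5410.3 and 6086.2 in A2780-ADR. The TMED2 samples overlapped, with a log2 difference of 0.10. Per kb, TMED10 over TMED2 was 1.36, 1.27 and 1.15 in the A2780 samples and 0.440, 0.418 and 0.418 in the A2780-ADR samples, so the RNA of these partners changed places in order. Pseudogenes of TMED10 held few reads: TMED10P2 had a mean of 1.75 normalized counts in A2780 and 2.55 in A2780-ADR, and TMED10P1 had 0.

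SURF4, a receptor with several membrane spans for soluble cargo such as lipoproteins, had 9742.0, 9859.6 and 9785.0 normalized counts in A2780. Its A2780-ADR values of 8312.0, 8141.4 and 8015.8 were lower by 16.7% in the mean. KDELR1, which returns ER residents that end in KDEL, had 8439.8, 8566.0 and 7695.0 in A2780 and 6922.5, 6685.8 and 6323.0 in A2780-ADR, a log2 difference of -0.31. Both genes were lower in every A2780-ADR sample. SEC24A, a cargo-binding subunit of the COPII coat, had 796.6, 827.1 and 807.5 in A2780 and 1051.8, 971.1 and 1134.7 in A2780-ADR, and was higher in every A2780-ADR sample (log2 difference 0.37). SEC24A overlaps SAR1B on the opposite strand, which had 886 and 1501 normalized counts, and that overlap's part was not tested.

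In order of level (normalized counts per kb), the A2780 line had KDELR1 (3658), SURF4 (2843), TMED10 (1722), LMAN2 (1660), TMED2 (1375), LMAN1 (1108), MCFD2 (577), LMAN2L (418) and SEC24A (113). In A2780-ADR the order was KDELR1 (2951), SURF4 (2367), LMAN2 (1522), TMED2 (1472), MCFD2 (862), TMED10 (626), LMAN2L (517), SEC24A (146) and LMAN1 (0.0948). TMED10 and LMAN2 in A2780, and LMAN2 and TMED2 in A2780-ADR, are neighbours whose ranges over samples overlap. Summed over the 10 genes, the level per kb was 22.3% lower in A2780-ADR, and 15.4% lower when LMAN1 was left out.

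Over all genes, 4688 of the 17005 tested (27.6%) passed an adjusted p under 0.05 and a 2-fold change with limma, 13.2% higher and 14.4% lower in A2780-ADR. Of the 9 members above the filter on low values, 2 lay past these thresholds, LMAN1, which was chosen for this, and TMED10, and 7 did not. The samples of the lines did not overlap for 7 of the 9 members, beside 74.6% of all genes tested. Since the members were chosen with this contrast known, these counts describe them and nothing is read from the shares. The median log2 difference of the 9 was -0.13, and -0.01 without LMAN1, beside -0.01 over all genes tested with quartiles of -0.49 and 0.50. Nothing says that the samples of a line came from separate cultures, so the p-values given for other genes rest on a spread between samples that may be technical only.

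The genes that flank LMAN1 on chromosome 18 were examined to see whether its loss stands alone. Of the 24 other protein-coding genes that start within 3 Mb of LMAN1, 12 were tested. Of these 5 fell, 1 rose (ONECUT2) and 6 did not pass, and their median log2 fold change was -0.88. Over all genes tested, 14.4% were called lower and 13.2% higher. The nearest tested gene on one side, SEC11C, a catalytic subunit of the signal peptidase that cuts signal peptides in the ER membrane, had 603, 706 and 652 normalized counts in A2780 and 0.946, 0 and 0 in A2780-ADR. ZNF532, a zinc finger gene, went from 2461 ± 104 to 0.642 ± 0.556. MALT1, a protease of lymphocyte signalling, had 951, 1040 and 1046 in A2780 and 0 in every A2780-ADR sample, which is at least 1057-fold lower when set against 3 reads over the group. NEDD4L, a ubiquitin ligase further from LMAN1, fell from 1832 to 57.1 (log2 -4.98, limma adjusted p = 3.3e-13) and NARS, the asparaginyl-tRNA synthetase of the cytosol, from 10936 to 4618 (log2 -1.24, limma adjusted p = 7.4e-11).

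LMAN1 sits in an unbroken row of 12 protein-coding genes, from ALPK2 to CDH20, each with at most 3 reads in A2780-ADR. The row was delimited after the values were seen. In A2780, 6 of these 12 had more than 3 reads: ALPK2 (48 reads, then 0), MALT1 (2947, then 0), ZNF532 (7170, then 2), SEC11C (1904, then 1), LMAN1, and PMAIP1 (35, then 0), the p53 target gene also called NOXA. Their starts and ends span 1.42 Mb, chr18:58481247-59904306, and the reads of all 12 genes of the row went from 33945 in A2780 to 5 in A2780-ADR. The other 6 genes of the row, GRP, RAX, CPLX4, CCBE1, MC4R and CDH20, had at most 3 reads in both lines, so they carry no measure of a difference. LMAN1 is the most abundant gene of the row, and every gene there that A2780 expressed was down to at most 2 reads in A2780-ADR.

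Outside the row, lower levels were common but of a different size. PIGN, the nearest tested gene on the other side at 2.83 Mb, had 1154 and 748 normalized counts (log2 -0.63). Within 10 Mb of LMAN1 and outside the row, 32 of 36 tested genes were below 0 on the log2 scale, with a median of -0.86 and quartiles of -1.45 and -0.59. Of these, 15 were called lower and 3 higher, beside 14.4% lower and 13.2% higher over all genes tested. In windows of 10 Mb along the chromosome the median was -0.05 at 50 to 60 Mb before LMAN1 (28 genes) and -0.06 at 40 to 50 Mb before it (23 genes). It was -0.42 at 30 to 40 Mb before LMAN1, and between -1.24 and -0.74 in the 6 windows from 30 Mb before it to 30 Mb after it. The difference of LMAN1 is thus a deep, local one inside a long stretch where most genes were lower by less. DNA was not measured here, and the DNA copy number of the stretch was not tested.

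**Figure D3:**
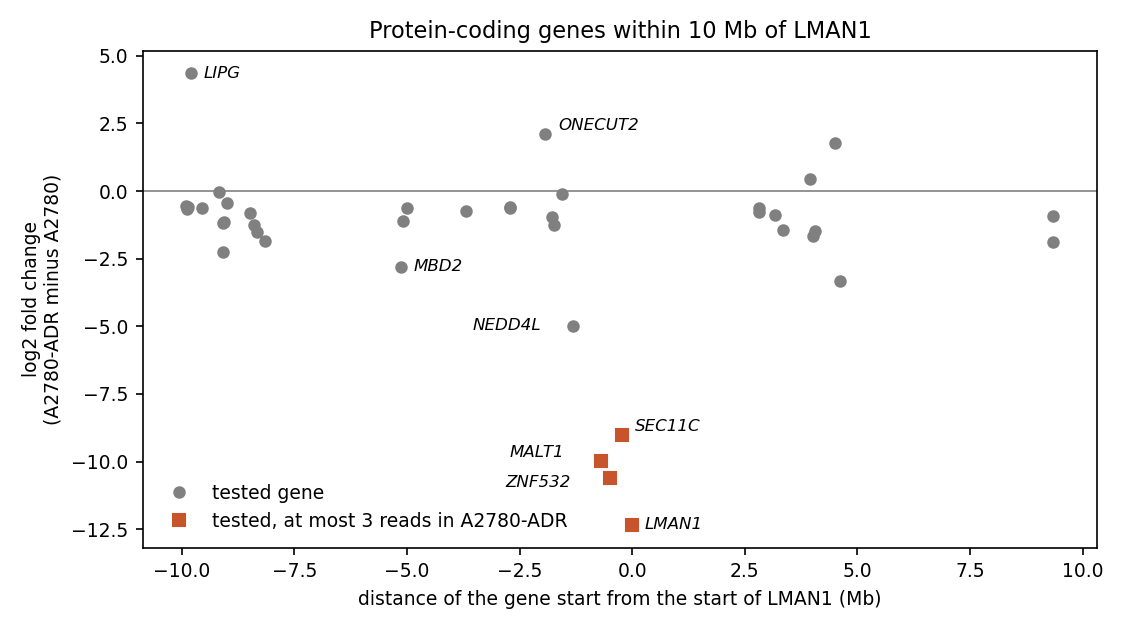
Log2 fold change (A2780-ADR minus A2780) of each tested protein-coding gene against the distance of its start from that of LMAN1 in Mb. LMAN1, ZNF532, MALT1 and SEC11C lie below -9, NEDD4L is at -4.98, and the quartiles of the genes outside the row of LMAN1 are -1.45 and -0.59.

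The same window of 3 Mb was then applied around each of the other members, a comparison added after the values were seen. Over all genes tested, 14.4% were called lower and 13.2% higher, and the median log2 fold change was -0.01. TMED10 lies on chromosome 14 among 61 tested neighbours, of which 32 were called lower, 1 higher and 58 were below 0, with a median of -1.03. Its nearest such neighbour, NEK9, a kinase of the mitotic spindle, went from 5906 to 2494 normalized counts, and DLST, a subunit of the oxoglutarate dehydrogenase, from 5417 to 1874. MLH3, a mismatch repair gene nearby, had 385 and 9.58, and JDP2, a transcription factor gene, 1279 and 18.8, while FOS, next to TMED10 on the other side, had 1288 and 1041 and did not pass. The largest fall among these neighbours was that of RIOX1, with 918 and 1.28 (log2 -8.87), and HEATR4 had 37.4 and 0.321. TMED8, the p24 gene that also lies on chromosome 14, had 1401 and 759 (log2 -0.88). A lower level was thus measured in TMED10 and in most of the genes around it.

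MCFD2 and LMAN2L both lie on chromosome 2, where the neighbours pointed upwards. Of the 25 tested neighbours of MCFD2, 9 were called higher and 2 lower, with a median of 0.85, above the 0.58 of MCFD2. CALM2, a calmodulin gene 0.235 Mb away, had 6486 and 11514 normalized counts. The 46 neighbours of LMAN2L had a median of 0.55, with 13 called higher and 2 lower. Over all genes tested, 13.2% were called higher and 14.4% lower. The windows of the other members had medians from -0.30 (SURF4, 58 genes) to 0.15 (SEC24A, 37 genes). In 8 of the 9 members tested, the sign of the member was that of the median of its neighbours, TMED2 (0.10 against -0.13) being the exception. The 8 include LMAN1, which was chosen for its fall, and the same share over all genes tested was not computed. Neighbouring genes are not independent of each other, so nothing is read from this count, which is a description with no test.

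**Figure D4:**
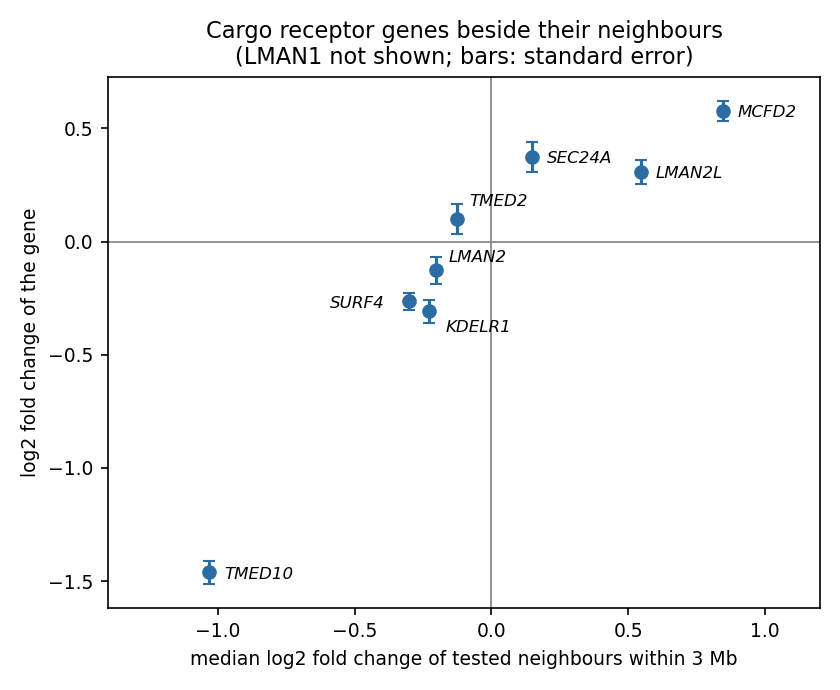
Log2 fold change of 8 cargo receptor genes (y axis, with its standard error) against the median log2 fold change of the tested protein-coding genes within 3 Mb (x axis). TMED10 is at -1.46 beside a median of -1.03, MCFD2 at 0.58 beside 0.85, and LMAN1 (-12.36 beside -0.88) is left out because it would compress the axes.

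The start of LMAN1 is shown because the gene is the one that lost its signal. Its RefSeq promoter window, 250 bases before to 50 after the start (GRCh38.p14, chr18:59359216-59359515, minus strand), is printed with 3 kinds of match on either strand in capitals: the GC box GGGCGG, the box known as CCAAT, and the letters CCACG of ER stress elements.
LMAN1: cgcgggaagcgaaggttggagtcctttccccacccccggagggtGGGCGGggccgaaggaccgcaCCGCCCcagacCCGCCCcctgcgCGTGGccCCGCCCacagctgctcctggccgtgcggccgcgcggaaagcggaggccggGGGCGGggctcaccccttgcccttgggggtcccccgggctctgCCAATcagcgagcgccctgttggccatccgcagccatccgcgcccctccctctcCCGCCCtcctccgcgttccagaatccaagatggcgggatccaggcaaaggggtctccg

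This window of LMAN1 is 74.3% G and C, holds 31 CpG, more than 79.3% of the 35116 promoters, and has 6 copies of GGGCGG, a motif found in 45.0% of all promoters. Stress-responsive elements of ER genes were searched as well. The 7 letters ACGTGGC, a core bound by the stress factors XBP1 and ATF6, were present in SURF4, TMED2 and SEC24A and in 3.22% of all promoters. They are printed in their surroundings, with the motif in capitals.
SURF4 (chr9:133376095-133376124): aggcttggcctACGTGGCagccgctggagc
TMED2 (chr12:123584446-123584475): tgcctccctttACGTGGCagctgcgggagc
SEC24A (chr5:134648597-134648626): gagagtcggtgACGTGGCggcgaggccggg

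These motifs start 53, 95 and 177 bases before the start of SURF4, TMED2 and SEC24A. SEC24A had a further match on the other strand. The 3 genes did not move together: SURF4 was lower, SEC24A higher and TMED2 overlapped between the lines. The longer ERSE element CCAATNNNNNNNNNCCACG (0.0769% of all promoters) and the cAMP-response element TGACGTCA (1.85%) were in none of the 11 promoters of the 9 members that matched. CCAAT was in 5 of these 9 members and in 34.6% of all promoters. A match describes the letters of the window and is no measure of binding.

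The rest of the export and retrieval machinery was read from lists of related genes. In the COPII coat and its exit sites, 18 genes were tested. SEC24D, a cargo-binding paralogue of SEC24A, rose from 1047 ± 10.8 to 2636 ± 151 normalized counts (log2 1.33 ± 0.055, limma adjusted p = 6.5e-10). SEC31B, a paralogue of the outer coat subunit SEC31A, fell from 1380 to 658 (log2 -1.07), and the other 16 did not pass, with a list median of 0.13. In the COPI coat 1 of 16 rose, COPG2, from 1012 to 2743, and the median was 0.07. COPG2 overlaps MEST on the opposite strand, which went from 115418 to 62.6 normalized counts.

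Of the 8 other p24 genes, 0 passed in either direction with limma, edgeR and DESeq2. In each tool 6 had an unadjusted p under 0.05, 1 higher and 5 lower. Over all genes, 12210 of 17005 passed an adjusted p under 0.05 with limma without the fold threshold, so nothing is read from this count. Among the 8, TMED3 was the highest by difference (1306 ± 25.1 and 2108 ± 63.5, log2 0.69) and TMED8 the lowest. The 28 tested genes of the other cargo receptors and the ER-Golgi recycling machinery had 2 that rose, the SNARE gene BET1 (407 to 984, log2 1.27) and BCAP29 (526 to 1144, log2 1.13). STX18, a SNARE of the ER that receives COPI vesicles, fell from 3826 ± 134 to 1342 ± 64.8 (log2 -1.51 ± 0.053, limma adjusted p = 1.6e-10), and 25 genes did not pass. STX18 overlaps NSG1 and STX18-AS1 on the opposite strand, both also lower.

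Genes of known or reported cargo of LMAN1 and MCFD2 showed the largest single difference among the lists. CTSZ, the lysosomal protease cathepsin Z, had 43.7, 28.5 and 24.3 normalized counts in A2780 and 2249, 2312 and 2111 in A2780-ADR (log2 6.11 ± 0.17, limma adjusted p = 2.4e-11). CTSC, cathepsin C, rose from 1605 ± 61.7 to 3878 ± 102 (log2 1.27). Both cathepsins have been described as ligands of LMAN1. LGALS3BP, a secreted glycoprotein, had 3596 and 5343 (log2 0.57) and did not pass the fold threshold. The clotting factors that make LMAN1 deficiency visible in people were low in both lines: F8 had 106 normalized counts in A2780 and 83.0 in A2780-ADR, and F5, not tested, 11.7 and 2.55. Of the 11 genes of this list 5 were tested, of which 2 rose and 0 fell with limma, edgeR and DESeq2. At an unadjusted p under 0.05 with limma, 3 were higher and 2 lower.

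A further list held 33 genes written down as ER residents with a KDEL-type end, and their protein ends were not checked. In it FKBP7, a prolyl isomerase, rose from 125 to 316, and RCN1, a calcium-binding reticulocalbin, fell from 7412 ± 197 to 3256 ± 2.77 (log2 -1.19). The other 31 did not pass, and the median was -0.15. Among 14 lectins and enzymes of N-glycan quality control, CLGN, the calnexin-like chaperone calmegin, fell from 626 ± 49.5 to 43.7 ± 3.26 (log2 -3.81 ± 0.11, limma adjusted p = 4.3e-11). The gene of that list called higher by limma, FBXO6, was named after its values were seen and had a mean of 6.86 in A2780 and 18.8 in A2780-ADR. ERLEC1, also named after its values were seen, had 1169 and 2343 and lay at the 2-fold line: edgeR and DESeq2 called it higher and limma did not. In no list except that of LMAN1 cargo (40.0% of 5 genes) did the share called reach the 27.6% of all genes tested. The lists were written with earlier results of these data known.

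**Figure D5:**
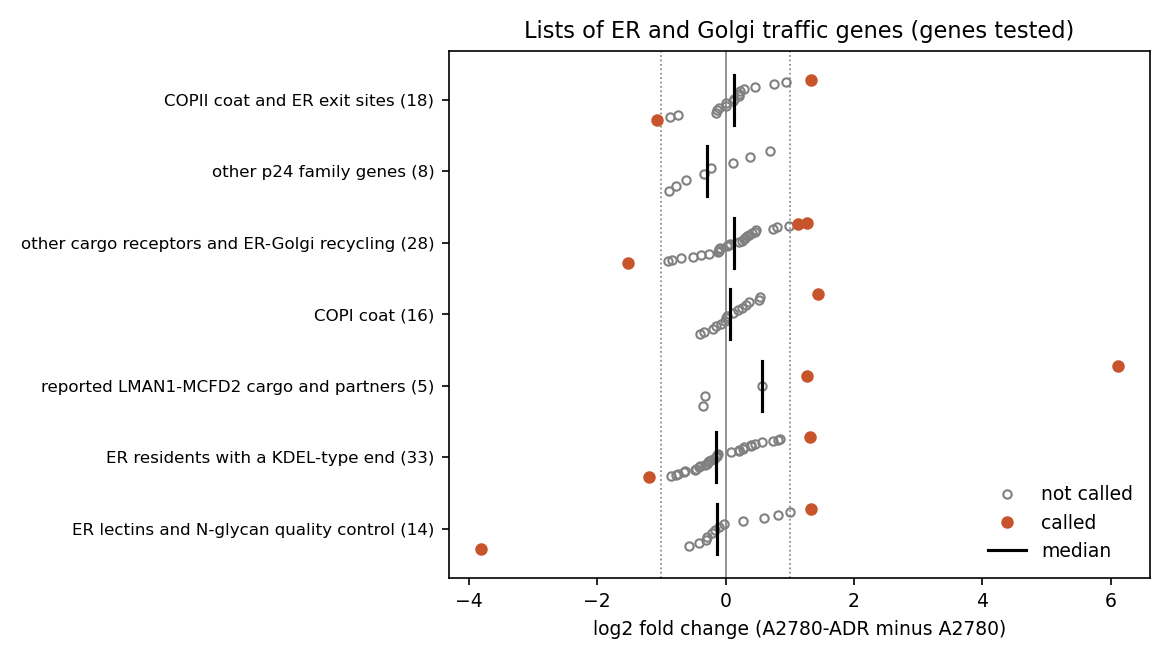
Log2 fold change of every tested gene in 7 lists of ER and Golgi traffic genes, with filled points for genes called, open points for the rest, a black bar at each median and dotted lines at a 2-fold change. The medians lie between -0.28 (other p24 genes) and 0.57 (LMAN1-MCFD2 cargo), CTSZ stands apart at 6.11 and CLGN at -3.81.

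The genes whose levels over the 6 samples were most like those of LMAN1 were found by Euclidean distance on the log2(normalized count + 1) scale. They were MAB21L2 (distance 1.82), PAX2 (2.02), ARMCX2 (2.33), OTOA (2.43) and MEOX2 (2.58), on chromosomes 4, 10, X, 16 and 7. MAB21L2 had 22242 reads in A2780 and 1 in A2780-ADR, and PAX2 29662 and 6. LMAN1 was thus not the only abundant gene with almost no reads in the resistant line, and none of these 5 lies on chromosome 18.

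The labels were checked on other genes. ABCB1, the drug efflux pump that marks A2780-ADR, had 0 to 2.04 normalized counts in the A2780 samples and 26769 to 29512 in the A2780-ADR samples. Of the markers of ovarian carcinoma, KRT7 was at 0 in all 6 samples, PAX8, WT1 and MUC16 had means from 0.340 to 15.3 and EPCAM had 54.6 and 75.3, while KRT8 went from 79.1 to 9071 and KRT18 from 130 to 4072. The sum of the 7 markers was 243 to 282 in A2780 and 12329 to 13765 in A2780-ADR. The 10 markers of leukocytes, endothelium, hepatocytes and plasma cells had at most 5.78 normalized counts in any sample. Their sum was 4.07 to 13.7 in A2780 and 13.5 to 23.1 in A2780-ADR, and 2 of them were at 0 throughout.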

How the data were processed

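RNA from 3 samples of each line was isolated with the Qiagen miRNeasy kit and made into libraries with the TruSeq Stranded mRNA kit. The deposited signal values are gene counts that the authors normalized with DESeq, and the submitters' processing notes name STAR, HTSeq and GRCh38. Neither the versions nor the strand setting is given in the sources used here. Values above 0 were whole multiples of the value of 1 read (100% within 0.01), so reads could be recovered, and edgeR on these reads called 4748 genes. Of the 58051 genes, 57447 were named by GENCODE 29, and 0 columns were left unassigned.

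The lines were compared in R 4.3.3 with limma 3.58.1 (variance trend) on log2(normalized count + 1), for the 17005 genes whose mean reached 10, and p-values were adjusted over these genes by Benjamini and Hochberg. Genes past 2-fold with an adjusted p under 0.05 were called. Fold changes of low genes come out too small on this scale. An exact permutation test of 3 against 3 samples cannot give a two-sided p under 0.1. No replicates were merged, since each pair differed beyond sampling noise (chi-square over its degrees of freedom 2.50 to 10.4). Levels per kb used the union of annotated exons, and genes count as near LMAN1 by the distance of their starts. Promoters came from RefSeq (GRCh38.p14), which matched 9 of the 10 members, and tables were handled in Python 3.11.15 with pandas 2.3.3, scipy 1.17.1 and matplotlib 3.10.9.

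The members and lists were chosen with earlier results of these data known, and 130 of 132 list symbols matched. Named genes are the members, the called genes of each list (up to 4 in each direction, with a mean of at least 100 in 1 line), the called and nearest tested genes around LMAN1, its 5 nearest genes by distance, ABCB1, and overlapping genes and pseudogenes. Neighbours of the other members, and other genes named beside them, were chosen after their values were seen. The alternatives were pseudocounts of 0.5 and 5, no filter, a mean of at least 50, TMM rescaling, edgeR 4.0.16, DESeq2 1.42.0, a replicate block, each sample left out, no fold threshold, windows of 1 and 10 Mb and no length correction.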

Additional observations from a re-analysis of the deposited data

How the results depend on the processing

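LMAN1 (chosen for its difference) and TMED10 were the members past the thresholds under every setting that kept the fold threshold, and no value reversed. Of 282 values, 261 stayed within the spread or 1.5 times the count and 21 moved. LMAN1's log2 difference ranged from -13.52 with DESeq2 to -10.39 with a pseudocount of 5, since it depends on what is added to almost no reads. Without the fold threshold 12210 genes passed, among them 7 members, 14 COPII, 5 other p24, 23 other cargo receptor and recycling, 11 COPI, 5 cargo, 28 KDEL-type and 12 ER lectin genes and 11 genes around LMAN1. A mean of at least 50 gave 2955 genes in place of 4688, with fewer genes tested, and 1 ER lectin gene, FBXO6 dropping out. Without a filter more genes were tested and 7007 were called, a count that stayed just inside the limit of 1.5 times. The COPI list then had 2 calls and the cargo list 6, from genes of few reads. Around LMAN1, 3 genes were called within 1 Mb and 21 within 10 Mb. The share of LMAN1 among the lectins was 59.8% (59.77) without length correction.

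Leaving out each sample in turn gave 4637 to 4742 genes, 2 members, 2 COPII, 0 other p24, 3 to 4 other cargo receptor, 1 COPI, 2 cargo, 2 KDEL-type and 2 to 3 ER lectin genes, 6 to 7 genes around LMAN1 and a LMAN1 share of 34.59% to 35.03%. Equal replicate numbers did not mark pairs of samples (correlations of 0.004, -0.016 and 0.077, with 3 of 6 samples closest to their own number). With the number as a block, 4690 genes were called and 2 members lay past the thresholds. TMM rescaling moved the median of all genes by 0.016. Genes near the 2-fold line, ERLEC1, RAB1A, FECH and CNIH3, crossed it in some settings. With 3 samples a line, depth limits only genes of few reads such as LMAN1L, F5 and PMAIP1.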

Other observations

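SEC11C, the nearest tested gene before LMAN1 and in the same row of genes with almost no reads in A2780-ADR, is 1 of the 2 catalytic subunits of the human signal peptidase, and the levels of the other subunits were looked up after its values were seen. SEC11A, the other catalytic subunit, had 6601 ± 373 normalized counts in A2780 and 4601 ± 75.6 in A2780-ADR (SD, n = 3). SPCS1 had 2318 ± 74.3 and 2712 ± 54.3, SPCS2 1056 ± 46.5 and 1036 ± 38.3, and SPCS3 3019 ± 312 and 2868 ± 303. None of these 4 differed by 2-fold, and the samples of SPCS2 and SPCS3 overlapped between the lines. A2780-ADR thus held RNA of SEC11A at a lower level, while that of SEC11C was at 1 read over its 3 samples.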
